A study of Mus musculus with 113 samples.

Results

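The immediate early genes followed here were Fos, Fosb, Jun, Junb, Egr1, Ier2, Ier3, Atf3, Dusp1 and Myc, 10 genes picked by symbol from 4 deposited gene tables of mouse embryonic stem cells (mESCs) entering neural differentiation. All 10 were among the 13541 genes of the SFEB population table, the 13738 genes of the adherent monoculture table and the 23107 genes of the E14 table, and 9 (all but Atf3) were among the 11449 genes of the single-cell table. SFEB, in which dissociated cells aggregate into floating bodies in medium without serum, and adherent monoculture, in which mESCs differentiate as a monolayer on gelatin, both started from R1 mESCs that had been dissociated and moved into serum-free or serum-replacement medium, and in both cultures the cells were replated on day 6. R1 SFEB populations came as a first series of 14 libraries from 0 to 142 h and a parallel series of 8 libraries from 0 to 216 h, with 8 single cells at each of the 8 times of the parallel series, and adherent monoculture gave 15 libraries from 0 to 216 h. The E14 line, another mESC line, was sequenced as wild type and as Fyn-KO at day 0 and day 4 of neural induction, with 3 libraries in each of the 4 groups. The Fyn-KO cells were 1 clone made with Cas9 that lacks the start of the coding sequence of Fyn, a Src family kinase, and the labels give both culture protocols for E14 without saying which was used. No population or adherent time point had more than 1 library within its series, so only the E14 comparisons carry a test.

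Immediate early genes are transcribed within minutes of a stimulus to the cell, without new protein synthesis, because the factors that switch them on, among them serum response factor with its ternary complex partners and CREB, already sit in the cell and are activated by kinases. Fos, Fosb, Jun and Junb encode subunits of AP-1, a dimeric transcription factor, and Egr1 encodes a zinc finger transcription factor. Atf3 is a stress-induced factor of the ATF/CREB family, Dusp1 is a phosphatase that switches MAP kinases off, Ier2 and Ier3 are small proteins named for their rapid response, and Myc is a growth regulator that serum induces and that also supports the self-renewal of mESCs. Their transcripts are short-lived, so a burst of transcription shows as a brief peak.

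Sequences upstream of 7 of the 10 genes were at hand from RefSeq (GRCm38.p6), as windows of 250 bases before and 50 bases after the annotated start. The 4 shown are those in which the cyclic AMP response element (CRE, TGACGTCA), its half-site TGACGT or a TATAAA box was found on either strand. Capitals mark these matches. The half-site lies inside the full CRE, so every CRE also counts as a half-site.
Fos, chr12:85473640-85473939, plus strand: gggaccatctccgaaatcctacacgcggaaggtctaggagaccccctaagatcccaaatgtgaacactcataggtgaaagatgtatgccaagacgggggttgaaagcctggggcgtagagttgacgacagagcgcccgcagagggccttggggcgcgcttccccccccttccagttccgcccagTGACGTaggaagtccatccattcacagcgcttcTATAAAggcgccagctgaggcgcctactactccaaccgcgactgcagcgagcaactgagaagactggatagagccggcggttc
Dusp1, chr17:26508423-26508722, minus strand: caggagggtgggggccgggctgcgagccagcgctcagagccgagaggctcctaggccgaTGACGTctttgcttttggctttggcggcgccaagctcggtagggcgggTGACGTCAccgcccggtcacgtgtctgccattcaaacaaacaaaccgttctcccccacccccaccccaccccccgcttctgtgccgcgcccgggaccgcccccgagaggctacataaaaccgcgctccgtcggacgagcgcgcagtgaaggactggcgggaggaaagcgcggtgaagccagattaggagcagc
Atf3, chr1:191183284-191183583, minus strand: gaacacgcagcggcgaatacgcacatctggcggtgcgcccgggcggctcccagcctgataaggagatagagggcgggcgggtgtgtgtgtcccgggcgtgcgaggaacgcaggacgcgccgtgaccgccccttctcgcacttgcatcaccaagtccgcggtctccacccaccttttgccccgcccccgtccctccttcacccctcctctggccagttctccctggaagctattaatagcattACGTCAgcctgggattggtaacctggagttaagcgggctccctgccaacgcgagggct
Junb, chr8:84978699-84978998, minus strand: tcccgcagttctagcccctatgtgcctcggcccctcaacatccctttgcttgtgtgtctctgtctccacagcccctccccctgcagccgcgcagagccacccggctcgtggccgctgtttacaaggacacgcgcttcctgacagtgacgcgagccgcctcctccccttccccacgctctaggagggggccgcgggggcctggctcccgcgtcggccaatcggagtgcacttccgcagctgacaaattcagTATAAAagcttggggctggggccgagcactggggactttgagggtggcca

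Fos carried the half-site 66 to 61 bases before the start and a TATAAA box at 33 to 28 bases before it. Dusp1 carried the full CRE at 143 to 136 bases and a further half-site at 191 to 186 bases, and Atf3 carried a half-site on the reverse strand at 8 to 3 bases before the start. In Junb the TATAAA letters began at the annotated start itself. The half-site was thus found in 3 of 7 members, against 7.51% of the 32851 mouse promoter windows, the full CRE in 1 against 1.79% and TATAAA in 2 against 13.6%. The AP-1 site TGANTCA and the CArG box, the letters bound by serum response factor, were found in 0 of 7, against 7.81% and 1.63% of all windows. These matches describe 300 bases only and are not evidence of binding.

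The deposited values carry no read counts, so the depth of each library was not computed here. In the first SFEB series the summed level of 9 naive pluripotency markers went from 825 FPKM (fragments per kilobase of transcript, scaled to library size) at 0 h to 38.8 at 142 h, while that of 9 neural progenitor markers went from 89.3 to 1304. R1 cells had been kept on feeders and passaged once without them, and the sum of 10 fibroblast markers was 1193 FPKM at 0 h in the first series, 1228 in the parallel series and 856 in adherent monoculture, with Col1a1 alone at 316 FPKM in the first series. In E14 the same sum lay between 1.54 and 28.0 FPKM. Fyn stood at 3.21, 2.74 and 4.00 FPKM in wild type and at 0.598, 0.598 and 1.10 FPKM in Fyn-KO at day 0, and at 9.44, 4.54 and 6.76 against 1.19, 1.13 and 1.58 FPKM at day 4, so the groups did not overlap. In a bulk library, fewer cells of a type and less RNA per cell cannot be told apart.

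In the mouse genome build of the R1 files (NCBIM37, mm9) the genes are spread over several chromosomes. Fos lies at chr12:86814840-86818223, Fosb at chr7:19888070-19895394 and Jun at chr4:94715725-94718913. Junb and Ier2 share a chromosome, at chr8:87500811-87502617 and chr8:87185230-87186751, and so do Dusp1 and Ier3, at chr17:26642535-26645464 and chr17:35958629-35959868. Egr1 lies at chr18:35020861-35024638, Atf3 at chr1:192994175-193007219 and Myc at chr15:61816946-61821929.

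In the first hours of SFEB culture 7 of the 10 genes were at least 2-fold above 0 h, Fos, Fosb, Junb, Egr1 and Atf3 at 1 h and Fosb, Junb, Ier2, Ier3 and Atf3 at 2 h. Jun and Dusp1 also had their highest level of the first series at 1 h or 2 h but stayed under 2-fold, and Myc was lower at both times than at 0 h. At 1 h, 5 members (Fos, Fosb, Junb, Egr1, Atf3) were at least 2-fold above 0 h on the log2(FPKM + 1) scale, where 0.259% of 13115 expressed genes were. Fosb was not among the expressed genes, defined as those above 0.5 FPKM in at least 8 libraries, so 4 of the 34 genes past 2-fold were members. The median log2 ratio at 1 h was 1.07 over the 10 members and 0.04 over all expressed genes. At 2 h, 5 members (Fosb, Junb, Ier2, Ier3, Atf3) were at least 2-fold above 0 h, against 2.23% of expressed genes, and the median log2 ratio was 1.02 over members and -0.08 over all expressed genes. At 2 h 10.9% of expressed genes were at least 1.5-fold higher and 12.6% lower, against 1.4% and 0.343% at 1 h. The summed FPKM was 436982 at 0 h, 486708 at 1 h and 572961 at 2 h, and its part in the ratios was not tested. With 1 library per time point these ratios have no replicate error.

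**Figure D1:**
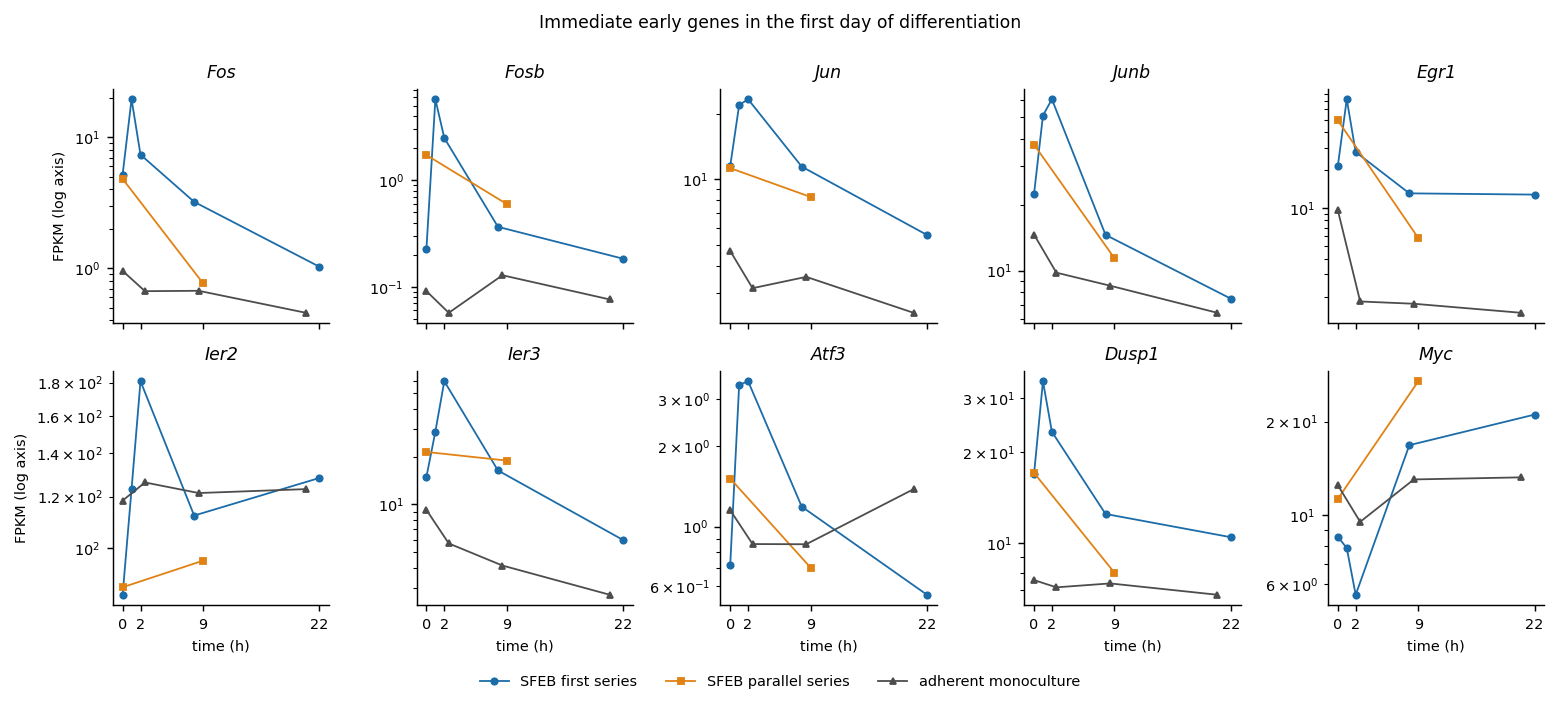
FPKM (log axis) of each gene from 0 to 22 h in the first SFEB series (blue circles), the parallel SFEB series (orange squares) and adherent monoculture (grey triangles), 1 library per point. Fos, Fosb and Egr1 peak at 1 h and Junb, Ier2 and Ier3 at 2 h in the first SFEB series, where Myc is lowest at 2 h. In adherent monoculture no gene is 2-fold above 0 h at 2.5 h, and only Ier2 is highest then, at 126 FPKM against 118 at 0 h.

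The Fos family peaked first. Fos stood at 5.19 FPKM at 0 h, 19.5 at 1 h, 7.36 at 2 h, 3.21 at 8 h and 1.03 at 22 h. Fosb, barely present at 0 h with 0.225 FPKM, reached 5.76 at 1 h and was 2.49 at 2 h, 0.365 at 8 h and 0.183 at 22 h. These 2 genes had log2 ratios to 0 h of 1.73 and 2.46 at 1 h, and at 2 h Fos was already 1.29 log2 units below its own 1 h level. Fos ranked 4th of the 13115 expressed genes by its ratio at 1 h, behind 3 small nucleolar RNA genes. Of the 34 genes past 2-fold at 1 h, 11 were small nucleolar RNA genes by their symbols, and their part in the 1 h values was not tested.

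Both Jun family genes were highest at 2 h. Junb went from 22.3 FPKM at 0 h to 51.0 at 1 h and 60.5 at 2 h, and stood at 14.6 at 8 h and 7.45 at 22 h. Jun went from 11.5 to 22.0 and 23.3 FPKM and was back at 11.4 at 8 h, so that its ratios of 0.88 and 0.96 on the log2 scale stayed just under 2-fold.

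Egr1 behaved like Fos. It stood at 21.4 FPKM at 0 h, 72.3 at 1 h, 27.7 at 2 h and 13.1 at 8 h, a log2 ratio to 0 h of 1.71 at 1 h and of 0.36 at 2 h. Dusp1, the MAP kinase phosphatase, followed with 16.8, 34.2, 23.3 and 12.5 FPKM at the same times, and its ratio at 1 h of 0.98 on the log2 scale lay just under 2-fold. Egr1 ranked 5th of the expressed genes at 1 h and Dusp1 40th.

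Ier3 and Ier2 were both highest at 2 h. Ier3 stood at 14.9 FPKM at 0 h, 28.7 at 1 h, 59.6 at 2 h and 16.4 at 8 h, and its log2 ratio of 1.93 at 2 h was the highest of the 10 at that time. Ier2 had the highest level of the 10 at every time, with 84.6 FPKM at 0 h, 123 at 1 h, 181 at 2 h and 112 at 8 h. Atf3 was low throughout, with 0.717 FPKM at 0 h, 3.39 at 1 h, 3.5 at 2 h and 1.19 at 8 h. Atf3 thus held its peak through 2 h, as Junb did.

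Myc moved the other way. It stood at 8.54 FPKM at 0 h, 7.85 at 1 h and 5.56 at 2 h, and then at 16.8 at 8 h and 21.1 at 22 h, its highest value of the first series. Its log2 ratio to 0 h was -0.54 at 2 h and 1.21 at 22 h, when it was the 1 member at least 2-fold above 0 h, against 2.26% of expressed genes. Against the parallel 0 h library its ratio at 22 h was 0.84 and the call was lost. Fos, Junb and Ier3 were then at least 2-fold below 0 h, 3 members against 5.28% of expressed genes. The fibroblast marker sum was 1193 FPKM at 0 h, 1118 at 1 h, 918 at 2 h, 402 at 8 h and 127 at 22 h. Its part in the peak and in the lower levels at 22 h was not tested. At 8 h no member was 2-fold away from 0 h in either direction, against 1.03% of expressed genes 2-fold higher and 2.01% 2-fold lower.

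**Figure D2:**
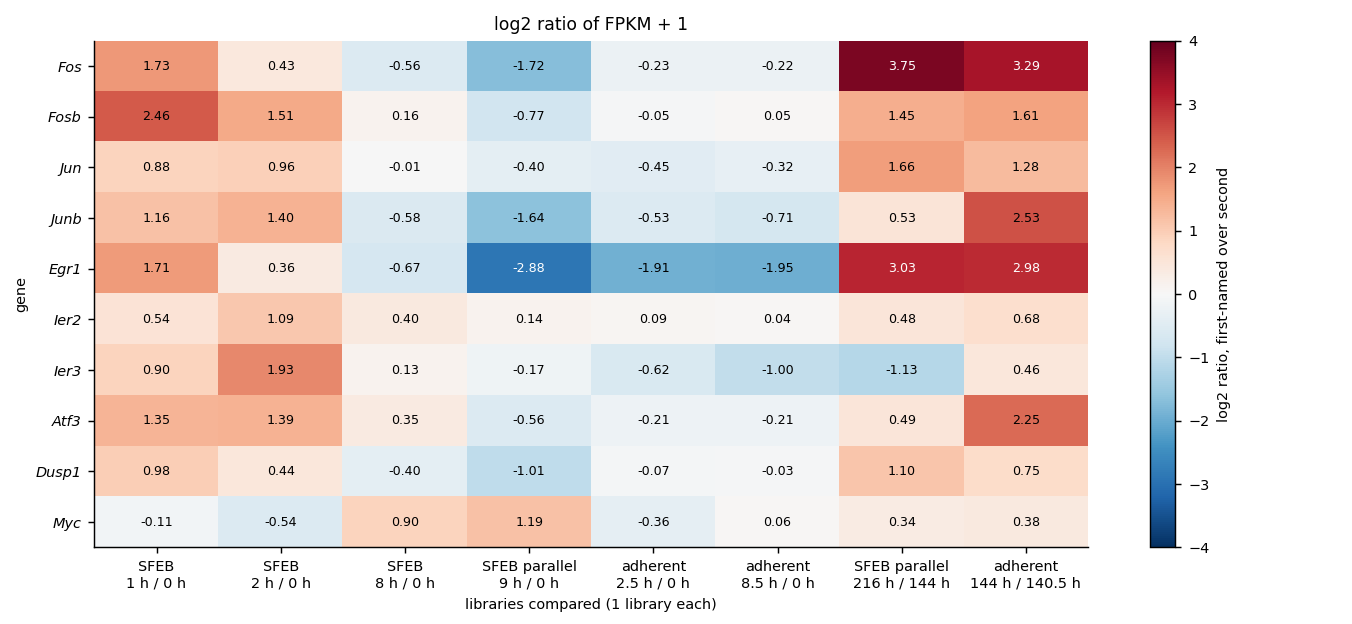
Log2 ratios of FPKM + 1 between single libraries for the 10 genes (rows) in 8 comparisons (columns), with the first-named time over the second, red for higher and blue for lower. The first 2 columns are above 0 for all genes but Myc, the columns of 9 h in the parallel series and of 2.5 h in adherent monoculture are mostly below 0, and the last 2 columns hold the highest ratios of Fos (3.75 and 3.29) and Egr1 (3.03 and 2.98).

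Other immediate early genes joined the peak in part. Of 38 further immediate early genes that were expressed, 6 were at least 2-fold above 0 h at 1 h, against 0.259% of all expressed genes, with a list median of 0.42 on the log2 scale. The highest were the nuclear receptor genes Nr4a1, from 15.8 to 47.0 FPKM, and Nr4a2, from 0.436 to 2.82 FPKM. At 2 h, 8 of 38 were at least 2-fold higher, against 2.23%, led by Gadd45b, a stress sensor gene, from 8.69 to 45.1 FPKM, and by the kinase gene Plk3, from 9.08 to 29.4 FPKM. Of 16 AP-1 and ATF relatives, 0 were 2-fold higher at 1 h and 3 at 2 h, against the same 0.259% and 2.23%, among them Atf4, a factor of the integrated stress response, from 54.9 to 119 FPKM. Of the 18 genes for the ternary complex and its upstream kinases and the 12 genes for heat shock and dissociation stress, 0 were 2-fold higher at 1 h or 2 h, with medians of -0.35 and 0.27 at 2 h. Of 10 Myc network genes 0 were 2-fold higher at 1 h and 1, Mxd1, a Myc antagonist, at 2 h, from 1.58 to 4.69 FPKM. At these shares of all expressed genes, a count of 0 or 1 in lists of 10 to 18 genes does not set a list apart.

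How many members passed 2-fold depended on which 0 h library was the reference. The parallel series held a second 0 h library, in which Egr1 stood at 49.3 FPKM against 21.4 in the first series, Junb at 37.6 against 22.3, Fosb at 1.72 against 0.225 and Atf3 at 1.51 against 0.717, while Fos (4.81 against 5.19), Jun (11.3 against 11.5), Dusp1 (17.1 against 16.8) and Ier2 (86.9 against 84.6) differed little. Against the parallel 0 h library, 2 members (Fos and Fosb) were at least 2-fold higher at 1 h, against 0.557% of expressed genes, and 2 (Ier2 and Ier3) at 2 h, against 2.09%. For Egr1 the 2 libraries at 0 h differed by 1.16 on the log2 scale, and the 1 h library was above both.

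The parallel series had no library at 1 or 2 h. Its fibroblast marker sum was 1228 FPKM at 0 h and 404 at 9 h, with 6 of the 10 markers at least 2-fold lower and a list median log2 ratio of -1.41, and the part of these markers in the values at 9 h was not tested. At 9 h, 4 members (Fos, Junb, Egr1, Dusp1) were at least 2-fold below the parallel 0 h library, against 2.81% of expressed genes. Below the first-series 0 h library there were 2 members, against 4.2%. Myc alone was at least 2-fold above the parallel 0 h library, against 0.587%. Egr1 went from 49.3 to 5.81 FPKM, the 5th lowest log2 ratio of all expressed genes at -2.88, and Fos from 4.81 to 0.767. Myc went from 11.3 to 26.9 FPKM, its highest value in any population. In both SFEB series, therefore, Myc was higher at 8 or 9 h than at 0 h, by 0.90 and 1.19 on the log2 scale, and Fos, Junb, Egr1 and Dusp1 were lower.

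In adherent monoculture the earliest library after 0 h was taken at 2.5 h, and no member was 2-fold above 0 h in it, against 2.51% of 12729 expressed genes. Egr1 was 2-fold lower, 1 member against 0.11% of expressed genes, going from 9.65 FPKM at 0 h to 1.84 at 2.5 h and 1.76 at 8.5 h. Only 3 expressed genes had a lower ratio than Egr1 at 2.5 h. Fos stood at 0.955, 0.669 and 0.673 FPKM at 0, 2.5 and 8.5 h, Junb at 14.6, 9.79 and 8.54, and Ier3 at 9.24, 5.69 and 4.1. Ier2 stayed high at 118, 126 and 122 FPKM, and Myc went from 12.5 to 9.53 and 13. At 8.5 h no member was 2-fold higher, against 2.55%, and Egr1 was again the 1 member 2-fold lower, against 0.464%. The median log2 ratio of the members was -0.29 at 2.5 h and -0.22 at 8.5 h.

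The early times of the 2 cultures were not the same, and no adherent library was taken at 1 h. At the nearest pair, 2 h in SFEB and 2.5 h in adherent monoculture, Ier3 was 1.93 above 0 h in one and 0.62 below it in the other on the log2 scale, and Junb was 1.4 above and 0.53 below. Of 34 expressed further immediate early genes in adherent monoculture, 0 were 2-fold higher and 2, Cyr61 and Ctgf, 2-fold lower at 2.5 h, against 2.51% and 0.11% of all expressed genes. Cyr61 and Ctgf, which encode secreted matrix proteins, went from 45.1 to 10.2 and from 185 to 67.7 FPKM while the fibroblast marker sum went from 856 to 733 FPKM.

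After the first day most members settled at low levels in the first SFEB series. From 22 to 142 h, over 10 libraries, Fos ranged from 0.578 to 1.94 FPKM with a median of 0.85, Fosb from 0.0672 to 0.183 with a median of 0.107, and Egr1 from 5.68 to 13.9 with a median of 7.49. Junb went from 7.45 FPKM at 22 h to 2.07 at 142 h, and Ier2 from 128 to 36.3. Jun did the reverse. It was lowest at 34 h with 1.80 FPKM and stood at 21.8 FPKM at 142 h, close to its 2 h level of 23.3. Dusp1 stayed between 8.75 and 12.6 FPKM. Myc stayed between 13.6 and 21.1 FPKM from 22 to 54.5 h, was 2.76 at 80 h, 12.6 at 103 h and 2.96 at 142 h. The library at 103 h thus stood apart from its neighbours for Myc, and it also had the highest Fos of this span.

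**Figure D3:**
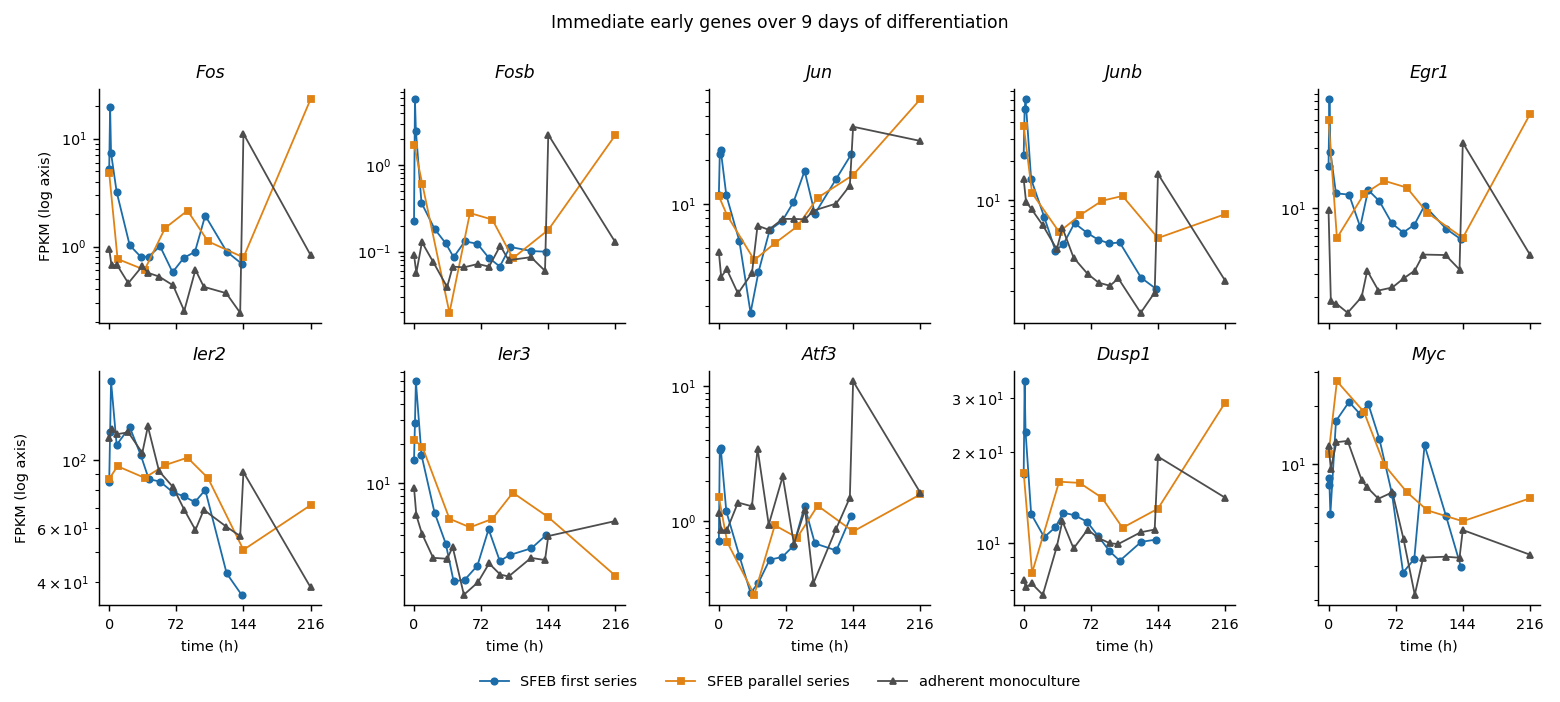
FPKM (log axis) of each gene at all times in the first SFEB series (blue circles, to 142 h), the parallel SFEB series (orange squares, to 216 h) and adherent monoculture (grey triangles, to 216 h), 1 library per point. Fos, Fosb, Egr1 and Jun are higher in the SFEB library at 216 h than at any earlier time of the parallel series and higher in the adherent library at 144 h than at any earlier time there, while the adherent library at 216 h is low for Fos, Fosb and Egr1.

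The SFEB library at 216 h was high for several members. In the parallel SFEB series, 5 members (Fos, Fosb, Jun, Egr1, Dusp1) were at least 2-fold higher at 216 h than at 144 h, against 6.38% of expressed genes, and Ier3 was 2-fold lower, against 3.31%, a comparison chosen after the values were seen. Fos went from 0.793 FPKM at 144 h to 23.2 at 216 h, above its 1 h peak in the other series, and its log2 ratio of 3.75 ranked 6th of all expressed genes. Egr1 went from 5.83 to 54.9 FPKM and Jun from 15.7 to 51.8, the highest Jun value of any population. Fosb reached 2.22 FPKM and Dusp1 29.0. Junb at 7.82, Ier2 at 71.2 and Atf3 at 1.58 FPKM stayed below or near their 0 h levels, and Ier3 was lowest of the series at 1.98 FPKM. Of the 5 members past 2-fold at 2 h in the first series, Fosb was past 2-fold here and Junb, Ier2, Ier3 and Atf3 were not 2-fold higher. The fibroblast marker sum was 87.0 FPKM at 144 h and 146 at 216 h, and the neural progenitor sum 678 and 1542, and the part of either in the difference was not tested.

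In adherent monoculture the library at 144 h stood apart. Against the library at 140.5 h, 6 members (Fos, Fosb, Jun, Junb, Egr1, Atf3) were at least 2-fold higher, against 3.85% of expressed genes, again a comparison chosen after the values were seen. Fos stood at 0.243 FPKM at 140.5 h, 11.1 at 144 h and 0.834 at 216 h, and over the 12 libraries from 2.5 to 140.5 h it had never passed 0.673. Egr1 stood at 3.28, 32.8 and 4.30 FPKM, Atf3 at 1.50, 10.9 and 1.63, and Junb at 1.94, 16 and 2.40. Jun stood at 13.3, 33.6 and 26.9 FPKM, so it stayed up at 216 h where the others did not. Myc was at 3.30, 4.58 and 3.42 FPKM and Ier3 at 2.6, 3.96 and 5.15. Of 34 expressed further immediate early genes 19 were at least 2-fold higher at 144 h, with a list median of 1.03 on the log2 scale against 0.04 over all expressed genes. They were led by Cyr61, from 13.8 to 73.8 FPKM, and Gadd45b, from 1.46 to 8.17 FPKM. The fibroblast marker sum moved with the members, at 96.4, 427 and 71.9 FPKM, led by the smooth muscle actin gene Acta2 at 203 FPKM at 144 h. All 10 of these markers were above 0.5 FPKM at 144 h, as they were at 140.5 h. Of the 10, 2 were at least 2-fold higher and 1 lower at 144 h, with a list median log2 ratio of -0.11, and their part in the result was not tested. The heat shock and dissociation stress list had a median log2 ratio of -0.13, with 1 of 12 genes, Hspb1, past 2-fold. The neural progenitor sum stood at 880, 659 and 1238 FPKM at 140.5, 144 and 216 h, with a list median log2 ratio of -0.32 at 144 h. Its part was not tested either.

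Over the 22 SFEB populations Fos and Egr1 had the most alike courses of the members with Fos, with a Pearson correlation of log2(FPKM + 1) of 0.903. Fosb followed Fos with 0.879 and Dusp1 with 0.868, against 0.354 for Ier2 and -0.0952 for Myc. The likeness of Fos and Ier3 was 0.871 over the 14 libraries of the first series and -0.378 over the 8 of the parallel series, and of the 2 series the first alone holds libraries at 1 and 2 h and the parallel alone one at 216 h. Among genes outside the list, those most like Fos were Metrnl (0.904), Smurf1 (0.884), Gp1ba (0.883), P4ha3 (0.877) and Foxc1 (0.864). Those most like Egr1 were Naaa (0.864), Gp1ba (0.818), 1500009C09Rik (0.813), P4ha3 (0.80) and Mnt (0.796). Myc was nearest to Nlrc4 (0.884), Morc2a (0.878), Zfp599 (0.85), Sf3b4 (0.85) and Aoah (0.849). These are descriptions over 22 libraries that share time points, batch correction and 2 series.

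Single cells were measured as log10(RPKM + 1), with RPKM the reads per kilobase scaled to library size, after quantile normalization over cells. The 8 cells of a time point are 1 sample, so no test was made between times. Ier2 was above 0 in 63 of 64 cells, Egr1 in 51, Dusp1 and Myc in 50 each, Junb in 48, Fos in 41, Jun in 35, Ier3 in 29 and Fosb in 9. Many of these values were close to 0, and above 0.5 RPKM there were 63 cells for Ier2, 36 for Junb, 33 for Egr1, 19 for Fos and 3 for Fosb.

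The late high of Fos and Egr1 was shared by most cells. At 216 h Fos was above 0 in all 8 cells, from 0.17 to 3.17 with a median of 1.18 on the log10 scale, and above 0.5 RPKM in 7 of them. Egr1 was above 0.5 RPKM in all 8, from 0.65 to 2.55 with a median of 1.99. At 144 h Fos exceeded 0 in 1 cell, at 0.000414, and Egr1 in 4, the highest of them at 0.95, so for Fos the cells of the 2 times did not overlap. Fosb was above 0.5 RPKM in 1 cell at 216 h, at 1.49, the highest Fosb value of any cell. Jun was above 0.5 RPKM in 3 cells at 216 h and in 1 at 144 h, and Dusp1 in 4 cells at each time. Genes above 0 per cell had a median of 6145 at 144 h, from 5648 to 10016, and of 7952 at 216 h, from 6771 to 8957, and the part of this difference was not tested.

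Myc was found in most cells at 9 h and in few at 106 and 144 h. At 9 h Myc was above 0.5 RPKM in all 8 cells, from 0.18 to 2.53 with a median of 1.69, against 3 of 8 cells at 0 h with a median of 0.13. At 38 h it was above 0.5 RPKM in 6 cells, at 60 h in 5, at 84 h in 1, at 106 h in 2, at 144 h in 0 and at 216 h again in 6, with a highest value there of 0.37. Fewer genes were above 0 per cell at 106 and 144 h than at 0 and 84 h, with medians of 7270 and 6145 against 8972 and 8550.5. The median at 9 h, 6927, was below that at 106 h. Members above 0 had medians of 3 and 2.5 at 106 and 144 h, against 7 at 0, 9 and 84 h, and the part of detection in the Myc counts was not tested. Fos at 9 h was above 0.5 RPKM in 6 of 8 cells, from 0.07 to 2.31 with a median of 0.57, and at 0 h in 1 of 8. In the population of the same time Fos was lower at 9 h than at 0 h, 0.767 against 4.81 FPKM, so the cells picked and the population differed in direction. Junb had its highest median at 0 h, 1.28, and Ier2 its highest at 9 h, 2.62, and its lowest, 1.64, at both 144 and 216 h.

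Fos and Egr1 were not always found in the same cells. At 84 h, 3 of 8 cells had both above 0.5 RPKM, 1 had Fos without Egr1, 2 had Egr1 without Fos and 2 had neither. At 9 h, 3 cells had both and 3 had Fos without Egr1, and at 216 h, 7 cells had both. At 60, 106 and 144 h no cell had Fos above 0.5 RPKM, while 3, 2 and 4 cells had Egr1. At 84 h Fos reached 1.71 in its highest cell, with a median of 0.68.

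**Figure D4:**
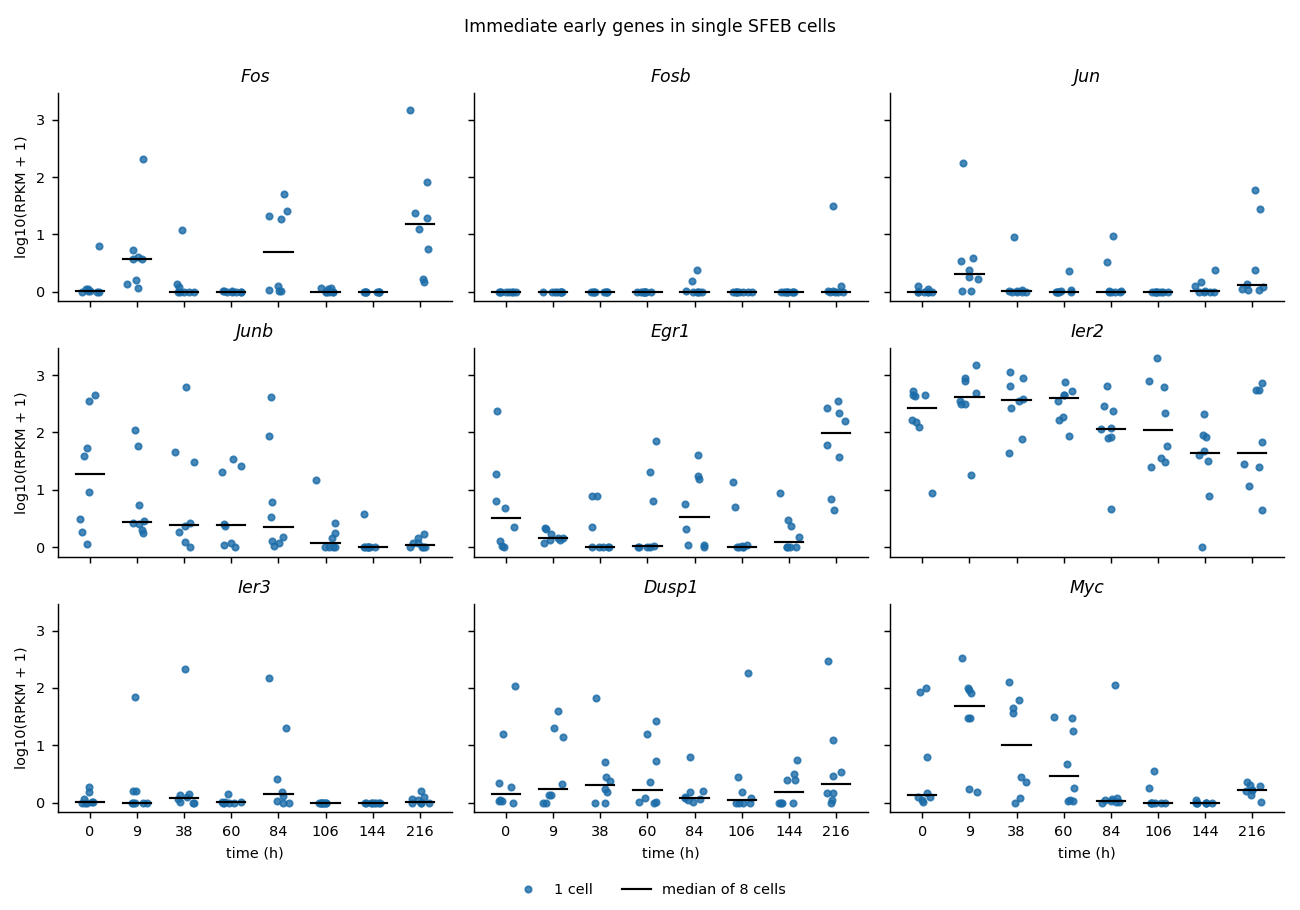
log10(RPKM + 1) of 9 genes in single SFEB cells by time of differentiation, each point 1 cell (8 per time) and each bar the median. Fos and Egr1 are highest at 216 h (medians 1.18 and 1.99), Myc at 9 h (1.69), Ier2 is present in nearly every cell and Fosb in few.

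E14 tested whether the members differed between day 4 and day 0 and between Fyn-KO and wild type. Of the 10, 9 passed the filter of at least 1 FPKM in 3 or more of the 12 libraries, and Fosb did not, since only 2 libraries reached it. In wild type 0 of 9 members passed an adjusted p of 0.05 between day 4 and day 0 (limma, Benjamini-Hochberg over 12257 genes), where 25.8% of genes did. The unadjusted p was under 0.05 for 1 member and for 4742 of the 12257 genes. In Fyn-KO the counts were 0 of 9 against 19.3%, with 2 members and 4263 of all genes at an unadjusted p under 0.05. Between the genotypes 0 of 9 passed at day 4, against 0.0734% of genes, and 0 of 9 at day 0, against 0.171%. At an unadjusted p under 0.05 there were 2 and 0 members, and 1483 and 1785 of the 12257 genes. The difference of the day 4 changes between the genotypes gave 0 of 9, against 0% of genes, with 0 members and 537 genes at an unadjusted p under 0.05. Nothing says that the 3 libraries of a group came from separate cultures, so these p-values measure the spread between libraries, which may be technical.

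The day 4 levels of Fos, Fosb, Jun and Egr1 were highest in the same replicate in both genotypes. Fos in wild type stood at 0.302, 0.611 and 0.844 FPKM at day 0 and at 0.0511, 0.342 and 11.8 at day 4 in replicates 1, 2 and 3. In Fyn-KO it stood at 0.865, 0.142 and 1.25 FPKM at day 0 and at 1.13, 0.417 and 6.99 at day 4. Replicate 3 was the high library at day 4 in both genotypes. Among the day 4 libraries, the small nucleolar RNA gene Snord22 took 28.1% and 23.1% of the summed FPKM in wild type replicates 1 and 2 and 28.5% in Fyn-KO replicate 2, while the top gene of each of the other 3 took 1.87% to 2.14%, and the part of this in the levels was not tested. Fosb showed the same, at 0.145, 0.191 and 3.69 FPKM in wild type and 0.137, 0.0537 and 2.07 in Fyn-KO at day 4, with every day 0 library at 0.215 or below. Across the 10 members, replicate 3 was the highest of its group for 9 in wild type day 4, 7 in Fyn-KO day 4, 8 in Fyn-KO day 0 and 4 in wild type day 0. The same count was not made over all genes, so it does not set the members apart.

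Egr1 in wild type stood at 0.163, 0.226 and 0.164 FPKM at day 0 and at 2.05, 1.10 and 30.4 at day 4, so the groups did not overlap. The share of all genes without overlap was not counted, so a lack of overlap, here and below, only describes the values. The log2 change was 2.31 ± 1.09 (SE, n = 3 per group), with an adjusted p of 0.14 by limma. Over the alternatives tried it ranged from 1.08, without replicate 3 of all 4 groups, to 3.92, with a pseudocount of 0.1, and without wild type day 4 replicate 3 alone it was 1.10 with an adjusted p of 0.457 by limma, the highest of any alternative. With the replicate number as a block, by which the same-numbered libraries of these 2 groups deviated together, the adjusted p was 0.0293 by limma. In Fyn-KO, Egr1 was listed at 0 and stood at 0.0551 and 9.66 FPKM in the 3 day 0 libraries and at 4.56, 1.26 and 14.4 at day 4, so the groups overlapped, and the log2 change was 1.37 ± 1.09 with an adjusted p of 0.40 by limma. Without replicate 3 of all 4 groups, an alternative chosen after these values were seen, the Egr1 change in Fyn-KO was 1.79 with an adjusted p of 0.0347 by limma, while without Fyn-KO day 4 replicate 3 alone it was 0.66 with an adjusted p of 0.757.

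Jun stood at 1.80, 1.26 and 2.03 FPKM at day 0 and 4.20, 1.55 and 10.7 at day 4 in wild type. In Fyn-KO it stood at 1.37, 0.741 and 1.34 FPKM at day 0 and 2.85, 2.52 and 10.7 at day 4, without overlap. The log2 changes were 1.00 ± 0.53 and 1.35 ± 0.53, with adjusted p of 0.18 and 0.0939 by limma. Without wild type day 4 replicate 2 the change in wild type was 1.54 with an adjusted p of 0.0471 by limma, and without wild type day 4 replicate 3 it was 0.44 with an adjusted p of 0.555. In Fyn-KO it was 0.79 with an adjusted p of 0.325 by limma without day 4 replicate 3. Junb leaned the other way in wild type, at 12.9, 11.5 and 9.86 FPKM at day 0 and 2.09, 5.90 and 8.54 at day 4, without overlap, a log2 change of -1.07 ± 0.48 with an adjusted p of 0.12 by limma. Without replicate 3 of all groups it was -1.51 with an adjusted p of 0.0394 by limma, and without wild type day 4 replicate 1 it was -0.61 with an adjusted p of 0.39.

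**Figure D5:**
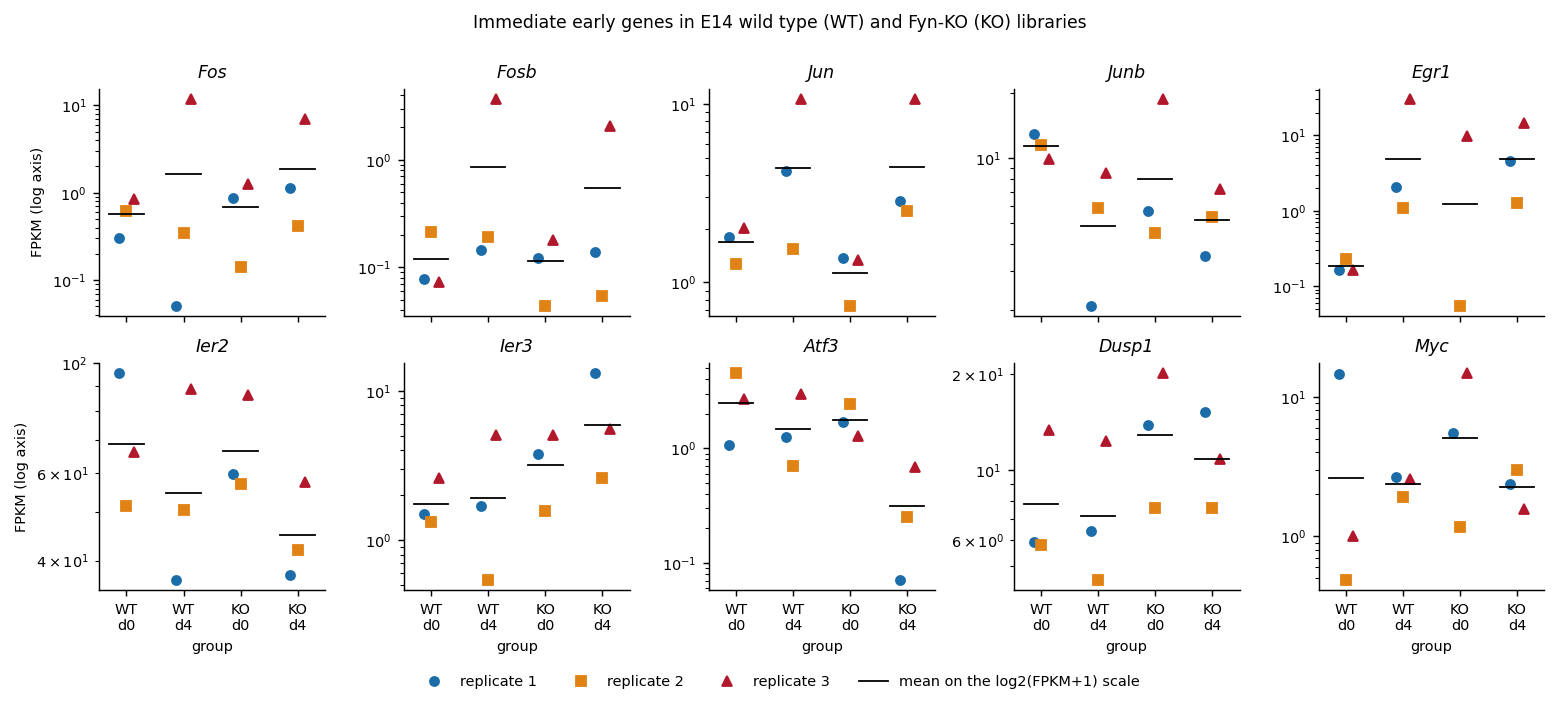
FPKM (log axis) of each gene in the 12 E14 libraries, by group (WT wild type, KO Fyn-KO, d0 day 0, d4 day 4), with the replicate number as symbol and a bar for the mean of log2(FPKM + 1). Replicate 3 (red triangles) is the high library at day 4 for Fos, Fosb, Jun and Egr1 in both genotypes. Egr1 in Fyn-KO day 0 replicate 1 is 0 and cannot be drawn on the log axis.

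Atf3 in Fyn-KO stood at 1.68, 2.44 and 1.29 FPKM at day 0 and at 0.0710, 0.251 and 0.682 at day 4, without overlap, a log2 change of -1.08 ± 0.39 with an adjusted p of 0.0720 by limma. With a pseudocount of 0.1 the change was -2.36 with an adjusted p of 0.0308 by limma, with quantile normalization -1.36 with 0.0240, and with the 2 groups alone -1.08 with 0.0383, while without Fyn-KO day 0 replicate 2 it was -0.92 with 0.219, the highest of any alternative. Myc varied widely among day 0 libraries, at 14.7, 0.486 and 1.01 FPKM in wild type and 5.49, 1.17 and 14.8 in Fyn-KO, and lay between 1.56 and 3.01 FPKM in all 6 day 4 libraries. Ier2 again had the highest level, from 36.5 to 95.5 FPKM. Dusp1 lay between 4.50 and 20.1 FPKM and Ier3 between 0.540 and 13.1 FPKM.

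Between Fyn-KO and wild type at day 4, the widest differences were Ier3, 1.24 ± 0.55 on the log2 scale with a 95% interval from 0.04 to 2.45 before adjustment and an adjusted p of 0.40 by limma, and Atf3, -0.92 ± 0.39 with an interval from -1.77 to -0.08 and an adjusted p of 0.37 by limma. Ier3 stood at 1.70, 0.540 and 5.04 FPKM in wild type and 13.1, 2.61 and 5.53 in Fyn-KO, so the groups overlapped, although Fyn-KO was the higher in each same-numbered pair. Atf3 stood at 1.26, 0.705 and 3 FPKM in wild type and 0.0710, 0.251 and 0.682 in Fyn-KO, without overlap and lower in each pair. With the replicate number as a block the adjusted p was 0.194 for Ier3 and 0.289 for Atf3 by limma. Over the alternatives tried, the Ier3 difference ranged from 0.73 to 1.81 and the Atf3 difference from -2.06 to -0.58. For Fos the interval ran from -1.70 to 1.98 and for Egr1 from -2.40 to 2.36, so a difference of several fold in either direction was not detectable with these libraries. Of 31 other immediate early genes tested between day 4 and day 0, 6 were higher and 7 lower in wild type, where 25.8% of all genes passed, and 7 were higher and 1 lower in Fyn-KO, where 19.3% did. Dusp4, a MAP kinase phosphatase gene, went from 0.587 to 17.6 FPKM in wild type (log2 change 3.5 ± 0.41, adjusted p = 0.000289 by limma) and from 0.868 to 18.9 in Fyn-KO. Nr4a1, which had joined the 1 h peak in SFEB, went from 13.4 to 4.06 FPKM in wild type (log2 change -1.53 ± 0.25, adjusted p = 0.00195 by limma).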

How the data were processed

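The members and gene lists were chosen with earlier results of these data known. R1 populations and adherent libraries were deposited by the authors as FPKM, the SFEB table after ComBat batch correction, with batches not given in the sources used here. Its 1256 values below 0 were set to 0, none of them in a member. The single-cell values, which the authors had quantile-normalized, are log10(RPKM + 1) as deposited. The submitters' processing notes name TopHat2 2.0.8b, Cufflinks 2.1.1, mm9 and mm10. The values carry no read counts.

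Ratios were taken as log2(FPKM + 1), which understates low genes, with expressed genes those above 0.5 FPKM in at least 8 libraries and 2-fold as the threshold. E14 was fitted with limma 3.58.1 (R 4.3.3, trend, all 4 groups) over genes of at least 1 FPKM in 3 libraries, adjusted by Benjamini-Hochberg, and the script was tested on simulated data. Same-numbered libraries deviated together between wild type day 0 and day 4 (r = 0.199, 0.22 and 0.224 over 12257 genes). They also did between the genotypes at day 4 (0.136, 0.258 and 0.24), and in these comparisons the numbers were taken to pair the libraries. Between Fyn-KO day 0 and day 4 the values were 0.0239, 0.0899 and 0.00112. Between the genotypes at day 0 they were 0.0628, 0.339 and -0.115. The fit reported has no block, and where numbers were taken to pair, the blocked value stands beside a result whose call it changes. All 10 members are named, with up to 5 genes of each other list by size of ratio and the 5 genes most like Fos, Egr1 and Myc. Other pseudocounts, filters, thresholds, references, normalizations, the block and left-out libraries were tried.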

Additional observations from a re-analysis of the deposited data

Results flagged for a closer look

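In 27 of 65 groups of 8 cells tested, 1 gene at 1 time each, the gap between the extreme cell and the next took up most of the range of the group (values in log10(RPKM + 1)). Chance gives about 1 in 20 for normally distributed values, a rate that does not hold for groups made mostly of zeros. In 15 of the 27 all other cells were below 0.5 RPKM. Another 7 of 72 groups had all cells equal. The highest Fos cell stood apart at 0 h (0.80), 9 h (2.31), 38 h (1.07) and 144 h (0.000414), and the highest Fosb cell at 0 h (0.000407), 144 h (0.000656) and 216 h (1.49). The highest Jun cell did so at 9 h (2.24), 38 h (0.956), 60 h (0.369) and 144 h (0.375), and the highest Junb cell at 106 h (1.17) and 144 h (0.58). For Ier2 it was the lowest cell, at 0 h (0.938), 9 h (1.25) and 84 h (0.658). The highest Ier3 cell stood apart at 9 h (1.84), 38 h (2.34), 60 h (0.149) and 216 h (0.198), the highest Dusp1 cell at 38 h (1.82), 84 h (0.793), 106 h (2.26) and 216 h (2.47), and the highest Myc cell at 84 h (2.05), 106 h (0.55) and 144 h (0.0478).

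For 8 members the ratio to 0 h was above 0 at 2 h in SFEB and below 0 at 2.5 h in adherent monoculture, 1 library each, and this difference between the cultures was not tested. The share of all expressed genes that moved this way was not counted, so the count does not set the members apart. The log2 ratio in SFEB minus that in adherent monoculture was 0.662 for Fos, 1.56 for Fosb, 1.41 for Jun, 1.93 for Junb, 2.26 for Egr1, 2.55 for Ier3, 1.60 for Atf3 and 0.515 for Dusp1.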

How the results depend on the processing

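Of the counts above, 160 values under alternatives stayed within 1.5 times the reported one and 61 did not. No called ratio changed sign, though a change of pseudocount or threshold cannot make one do so. Uncalled E14 changes took the other sign in places, as for Fos in wild type, from -0.40 to 1.4. With a 1.5-fold threshold the members higher in SFEB were 8 at 1 h (1.4% of expressed genes), 1 at 8 h (6.55%) and 2 at 22 h (9.25%) and those lower 1 at 8 h (8.3%) and 6 at 22 h (13.2%), and in adherent monoculture 2 were lower at 2.5 h (1.15%) and 3 at 8.5 h (2%). With a 4-fold threshold they were 1 higher at 1 h (0.0152%), 0 at 2 h (0.061%), 0 at 22 h (0.107%) and 0 at 9 h (0.061%), 0 lower at 22 h (1.02%) and 1 at 9 h (0.168%), 0 lower in adherent monoculture at 2.5 h (0.00786%) and 8.5 h (0.0393%), and at 216 h 2 higher (0.976%) and 0 lower (0.259%), so that at these shares a count of 0 says nothing about the members. With the parallel 0 h library as reference they were 2 higher at 1 h (0.557%), 2 at 2 h (2.09%) and 0 at 22 h (1.5%), and 2 lower at 8 h (2.1%) and 5 at 22 h (4.57%). With the first-series 0 h library, chosen after seeing the data, 2 were lower at 9 h (4.2%). At 8.5 h in adherent monoculture 2 were lower with a pseudocount of 0.1 (0.951%) and 2 after median centring (0.503%). Above 0.5 RPKM in place of 0, the median number of members per cell was 4 at 0 h, 3 at 60 h and 4.5 at 216 h, against 7, 6 and 7.5.

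In E14, with the replicate number as a block, 1 member passed between day 4 and day 0 in wild type (Egr1, where 29.1% of all genes passed) and 1 in Fyn-KO (Jun, adjusted p = 0.0268 by limma, where 22.7% did), where same-numbered libraries did not pair, and 38 genes passed between genotypes at day 0 and 2 for the difference of changes. The block changed no other count at the adjusted threshold by over 1.5 times. It moved members at an unadjusted p under 0.05 by limma from 1 to 3 in wild type, where all genes went from 4742 to 5068. Between genotypes at day 0 members went from 0 to 1 and all genes from 1785 to 2107. In Fyn-KO, 1 member (Atf3) passed with a pseudocount of 0.1 (19.9% of all genes), 1 with quantile normalization (19.6%) and 1 with only the 2 groups (14.7%). Between genotypes at day 4, 24 genes passed with no filter, 17 with quantile normalization and 5 with the 2 groups alone, against 9, and at day 0, 35 with no filter and 2 with the 2 groups alone, against 21. The difference of changes gave 1 with no filter. Leaving out 1 library in turn, the genes passing ranged from 1831 to 2841 in wild type, where members ranged from 0 to 1 (Jun without wild type day 4 replicate 2, where 22.1% of all genes passed), from 1041 to 3063 in Fyn-KO, from 5 to 14 between genotypes at day 4, from 4 (without wild type day 0 replicate 2) to 128 (without wild type day 0 replicate 1) at day 0, and from 0 to 4 for the difference of changes. Without replicate 3 of all groups, chosen after seeing the data, 1501 genes (12.8%) and 1 member (Junb) passed in wild type, 1 member (Egr1) in Fyn-KO (14.3% of all genes), and 1 gene between genotypes at each day. The cause of these shifts was not tested.

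No SFEB or adherent time point had a replicate within its series, no read counts came with the values, and the earliest times differed between the cultures.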
